A study of Homo sapiens with 2 samples.

Results

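The genes described here are the cyclin-dependent kinase (CDK) inhibitors and the D-type cyclins. These 10 genes were listed by symbol from the 60839 genes compared, with earlier results of these data known. They are the CIP/KIP inhibitors CDKN1A, CDKN1B and CDKN1C, the INK4 inhibitors CDKN2A, CDKN2B, CDKN2C and CDKN2D, and the cyclins CCND1, CCND2 and CCND3. RNA of SUM-159, a human triple-negative breast cancer line, was sequenced in 2 libraries. The first came from cells with the genotype PD-L1L2-SE deficient, SE being the super-enhancer of the title, and the other from the sgVector control. No treatment is given for either, and the labels do not say which guides were used or whether the deficient cells were 1 clone or a pool. The study is about the control of PD-L1 and PD-L2 by the element, and these cell cycle genes were measured along with all others.

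Levels are given in RPKM, a gene's reads divided by its length in kilobases and by the library's total in units of 1000000 reads, with the read count behind each. The steps of the values correspond to 16381546 reads for the deficient cells and 16206675 for the control. Each group is a single library, so there is no replicate check of any difference and no p-value was computed. Intervals are 95% intervals for counting error only, exact Poisson for a level and Clopper-Pearson for a ratio of read shares, and PCR copies of a molecule make the true uncertainty wider. Log2 ratios compare RPKM + 0.1 between the deficient and the sgVector library and were read where a gene's mean reached 1 RPKM. CD274 and PDCD1LG2, which encode PD-L1 and PD-L2, had 477 and 204 reads in the control and 47 and 46 in the deficient library, 10.3-fold (7.59 to 14.2) and 4.48-fold (3.24 to 6.32) lower.

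D-type cyclins bind and activate CDK4 and CDK6, which phosphorylate the retinoblastoma protein RB and so free E2F factors to switch on genes for DNA replication. INK4 proteins bind CDK4 and CDK6 and block the joining of cyclin D. CIP/KIP proteins bind cyclin-CDK complexes and inhibit CDK2 above all, while they also help cyclin D and CDK4 to assemble. In many breast cancers this switch is altered by gain of CCND1, loss of CDKN2A or loss of RB1.

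Of the 10 genes, 7 reached a mean of 1 RPKM and 3, CDKN2A, CDKN2B and CCND2, had between 0 and 6 reads in either library. CDKN1A, which encodes p21, was 2.20-fold lower in the deficient library and was the only 1 of the 7 past 2-fold. For comparison, 4.69% of 13552 genes were at least 2-fold lower and 3.03% at least 2-fold higher, and 0 of the 7 genes were higher by that much. Among 10576 protein-coding genes the shares were 2.07% lower and 2.10% higher. CCND3 was 1.52-fold higher, the only 1 of the 7 past 1.5-fold upward, where 8.29% of all genes lay. On the scale with 0.1 RPKM added, CDKN1A alone passed 1.5-fold downward, as did 12.6% of all genes. The other 5 expressed genes differed by 1.51-fold or less, and the CDKN1B interval spanned no change. Of the 7 genes 6 had a counting interval on 1 side of no change, as did 58.5% of the 13552 genes and 65.4% of the protein-coding ones, so such an interval alone sets no gene apart here. In bulk RNA, fewer cells that express a gene and less RNA per cell cannot be told apart.

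**Figure D1:**
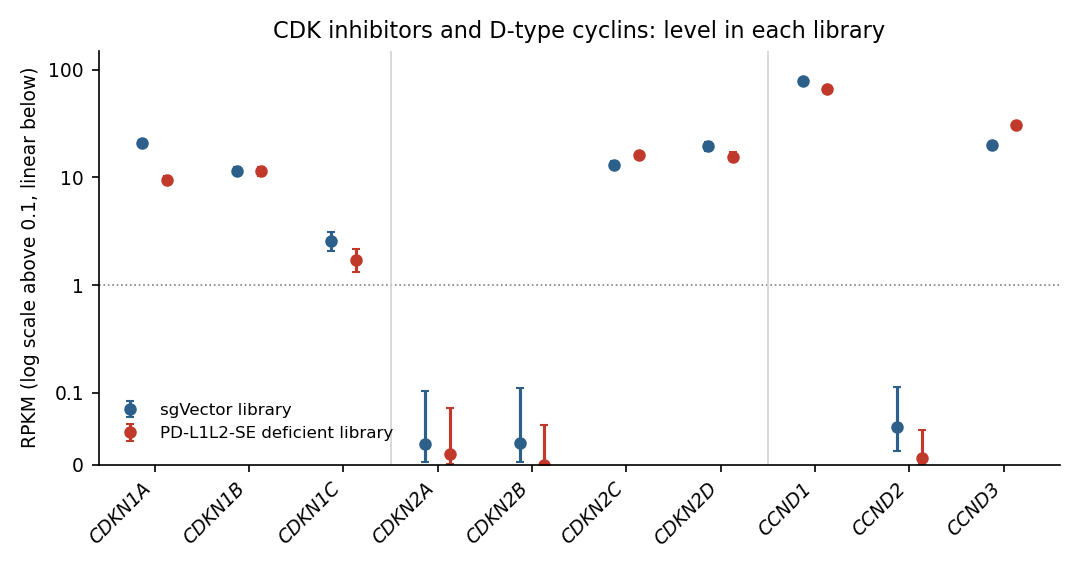
Level of each gene in RPKM (vertical axis, logarithmic above 0.1 and linear below) in the sgVector library (blue) and the deficient library (red), with exact 95% Poisson intervals of the read counts as bars and a dotted line at 1 RPKM. Grey lines separate CIP/KIP genes, INK4 genes and D-type cyclins. CDKN1A goes from 20.9 to 9.49 RPKM, CCND3 from 20.2 to 30.6, and CDKN2A, CDKN2B and CCND2 lie near 0 in both libraries.

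The order of the levels per gene length differed between the libraries, most of all for CDKN1A. In the sgVector library CCND1 was highest at 79.2 RPKM (77.2 to 81.2). CDKN1A at 20.9 RPKM (19.7 to 22.2), CCND3 at 20.2 (19.3 to 21.1) and CDKN2D at 19.4 (17.7 to 21.2) followed, with overlapping intervals. CDKN2C at 13.1 RPKM (12.1 to 14.1) and CDKN1B at 11.4 (10.5 to 12.5) came next, again with overlapping intervals, and then CDKN1C at 2.56 (2.09 to 3.11). In the deficient library CCND1 was again highest at 66.3 RPKM (64.5 to 68.1), and CCND3 stood alone behind it at 30.6 (29.5 to 31.7). CDKN2C at 16.1 RPKM (15.0 to 17.2) and CDKN2D at 15.6 (14.1 to 17.2) overlapped. CDKN1B at 11.4 RPKM (10.4 to 12.4) and CDKN1A at 9.49 (8.65 to 10.4) met at the ends of their intervals, and CDKN1C stood at 1.70 (1.32 to 2.15). CDKN1A thus ranked after 1 gene in the control and after 5 in the deficient library.

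CDKN1A, on chromosome 6 from 36644237 to 36655116 on the plus strand in hg19, the build of all gene coordinates here (ENSG00000124762), encodes p21, an inhibitor of CDK2 induced by DNA damage. It had 1034 reads in the sgVector library and 474 in the deficient library, and the interval of the 2.20-fold lower share ran from 1.98 to 2.46. The log2 ratio was -1.13, and -0.91, short of 2-fold, after correction for GC content and length. Of all 13552 genes past 1 RPKM, 838 (6.18%) lay at least as far from 0, and of the 10576 protein-coding ones 327 (3.09%) did. Among the 2025 protein-coding genes within 0.5 log2 units of its mean level the share was 1.28%. DINOL, a long non-coding RNA gene next to it on the other strand, shares 146 exon bases with CDKN1A and had 1 read in the control and 0 in the deficient library.

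CDKN1B, on chromosome 12 from 12867992 to 12875305 (ENSG00000111276), encodes p27, an inhibitor that restrains CDK2 in resting cells. It had 521 reads in the sgVector library and 523 in the deficient library, a ratio of 0.993 (0.878 to 1.12). A difference larger than about 1.14-fold in either direction lies outside that counting interval. CDKN1C, on chromosome 11 from 2904443 to 2907003 (ENSG00000129757), encodes p57, an imprinted inhibitor expressed from the maternal copy. It was 1.51-fold lower (1.10 to 2.08), with 69 reads against 103. At that depth 24.6% of protein-coding genes of like level lay as far from 0 or farther.

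Within a library the ratio of 1 gene to another does not depend on how the libraries are scaled, but a correction made gene by gene can change it. Correction for GC content and length took the log2 ratio of CDKN1A from -1.13 to -0.91 and that of CDKN1B from -0.01 to 0.09. The ratios below are without it. CDKN1A stood at 1.83 times the RPKM of CDKN1B in the sgVector library and at 0.835 times in the deficient library, a 2.19-fold lower ratio (1.85 to 2.59). p21 transcripts made up 59.9% of the summed CIP/KIP RPKM in the control and 42.1% in the deficient library, and p27 transcripts 32.8% and 50.4%. CDKN1C kept close to the same share of the family, 7.34% and 7.54%. The sum over the 3 genes was 34.9 RPKM in the control and 22.5 in the deficient library.

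The sequence just upstream of the CDKN1A start is set beside that of CDKN1B, because the former gene was past 2-fold and the level of the latter was nearly equal in the libraries. Both are RefSeq windows of 250 bases before the start, in GRCh38.p14 coordinates and not in the hg19 of the expression table, chr6:36678464-36678713 and chr12:12717118-12717367, both on the plus strand. Capitals mark the motif letters found on either strand.
CDKN1A: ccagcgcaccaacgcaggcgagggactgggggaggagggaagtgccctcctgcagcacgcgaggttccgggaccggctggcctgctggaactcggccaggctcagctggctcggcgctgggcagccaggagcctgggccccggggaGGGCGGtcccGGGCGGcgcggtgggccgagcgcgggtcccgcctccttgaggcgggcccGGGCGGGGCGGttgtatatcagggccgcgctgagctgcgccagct
CDKN1B: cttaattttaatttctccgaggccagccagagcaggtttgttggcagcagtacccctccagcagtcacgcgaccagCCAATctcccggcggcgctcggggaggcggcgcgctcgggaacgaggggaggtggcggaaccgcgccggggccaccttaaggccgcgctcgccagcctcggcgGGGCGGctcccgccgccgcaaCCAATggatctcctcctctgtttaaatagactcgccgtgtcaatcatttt
The motifs searched, on both strands, were the GC box GGGCGG, the CCAAT box CCAAT, the TATA box TATAAA, the E-box CACGTG, the AP-1 letters TGACTCA, the FOXO letters GTAAACA and the E2F letters TTCCCGC or TTCGCGC. The CDKN1A window holds 4 GC boxes, of which the pair nearest its 3′ end overlap, and none of the other motifs. The CDKN1B window holds 1 GC box and 2 CCAAT boxes. Over all 35116 windows of that length 42.6% hold a GC box and 32.0% a CCAAT box. The GC content was 76.4% for CDKN1A and 64.4% for CDKN1B, against a median of 58.0% over all windows. Windows were found for 7 of the 10 genes, and none was found for CDKN1C, CCND1 or CCND2 in the set used here.

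The INK4 genes fell into an expressed pair and a pair with almost no reads. CDKN2C, on chromosome 1 from 51426417 to 51440305 (ENSG00000123080), encodes p18. It had 703 reads at 13.1 RPKM in the sgVector library and 874 at 16.1 in the deficient library, 1.23-fold higher (1.11 to 1.36). CDKN2D, on chromosome 19 from 10677138 to 10679735 (ENSG00000129355), encodes p19. It had 472 reads at 19.4 RPKM in the sgVector library and 384 at 15.6 in the deficient library, 1.24-fold lower (1.08 to 1.43). Their log2 ratios, 0.30 and -0.31, were matched or exceeded in size by 43.4% and 41.2% of protein-coding genes. CDKN2C stood at 0.675 times the RPKM of CDKN2D in the control and at 1.03 times in the deficient library, a 1.53-fold higher ratio (1.29 to 1.81). The INK4 sum was 32.5 RPKM in the control and 31.7 in the deficient library. After correction for GC content and length the log2 ratios were 0.51 for CDKN2C and -0.04 for CDKN2D, so the lower value of CDKN2D did not hold under that correction.

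CDKN2C has 3 RefSeq start windows, and its middle one, at chr1:50968456-50968705 on the plus strand of GRCh38.p14, is shown because it alone of the 12 windows of the family holds the E2F letters. Capitals mark 5 GC boxes, of which a pair overlap, and 2 matches of the E2F letters, which 7.18% of all windows hold.
CDKN2C: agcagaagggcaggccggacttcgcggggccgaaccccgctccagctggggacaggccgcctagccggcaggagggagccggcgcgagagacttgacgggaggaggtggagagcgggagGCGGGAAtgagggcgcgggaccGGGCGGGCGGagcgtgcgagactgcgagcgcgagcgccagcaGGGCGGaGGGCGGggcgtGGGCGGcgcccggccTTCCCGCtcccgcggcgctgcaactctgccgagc
The E2F transcripts themselves are given with the RB family further on, and a match of letters shows no binding.

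CDKN2A, which encodes both the INK4 protein p16 and, from another start and reading frame, the MDM2 inhibitor p14ARF, had 2 reads in the sgVector library and 1 in the deficient library. It spans 21967752 to 21995300 on the minus strand of chromosome 9 (ENSG00000147889). CDKN2B, which encodes p15, a TGF-beta-induced INK4 inhibitor, had 2 reads in the control and was listed at 0 in the deficient library, and it spans 22002902 to 22009362 (ENSG00000147883). The upper ends of the intervals were 0.103 and 0.110 RPKM in the control and 0.0786 and 0.0555 in the deficient library, so both genes lay far below the expressed INK4 pair in each library. No ratio is given, since all 4 counts lie within the 3 reads that a count of 0 allows. The reads of CDKN2A are summed over its starts, so p16 and p14ARF transcripts cannot be told apart, and both starts are bounded by the same near absence of reads.

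The starts of CDKN2A are shown because they lie apart and serve 2 different proteins while the table holds a single value. These are RefSeq windows of 250 bases in GRCh38.p14 on the minus strand, chr9:21995325-21995574 for the farther start and chr9:21974858-21975107 for the nearer. Only the second holds a searched motif, 1 GC box, in capitals.
CDKN2A farther start: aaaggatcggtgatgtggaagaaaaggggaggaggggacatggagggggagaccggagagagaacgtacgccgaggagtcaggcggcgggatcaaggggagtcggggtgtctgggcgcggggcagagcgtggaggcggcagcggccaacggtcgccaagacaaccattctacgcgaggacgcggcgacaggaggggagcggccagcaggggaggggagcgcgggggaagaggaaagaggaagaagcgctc
CDKN2A nearer start: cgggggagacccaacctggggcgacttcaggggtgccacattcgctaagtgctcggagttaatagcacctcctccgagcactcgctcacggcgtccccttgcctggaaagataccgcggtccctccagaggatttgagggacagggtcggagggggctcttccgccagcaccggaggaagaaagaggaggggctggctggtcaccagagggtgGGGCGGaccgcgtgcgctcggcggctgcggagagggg
The expression values do not say which of these starts gave the 3 reads of the gene. The windows have the same GC content, 66.8%.

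Genes around CDKN2A on 9p21 were also at or near 0 in both libraries. MTAP, which encodes a methionine salvage enzyme and is often lost together with CDKN2A in tumours, had 1 read in the deficient library and 0 in the control. The antisense RNA gene CDKN2B-AS1, known as ANRIL, shares 341 exon bases with CDKN2A and was listed at 0 in both. From IFNA6 to DMRTA1, which spans 21349834 to 22455739, all 11 protein-coding genes had at most 3 reads in each library, 8 of them 0 in both, with 2 reads in all in the deficient library and 4 in the control. Several of these are interferon genes, which are silent in many cells without infection, whereas MTAP is expressed in most cells. This stretch was drawn after the values were seen, outward from CDKN2A for as long as each protein-coding gene had at most 3 reads in both libraries. The limit of 3 reads was thus set by the rule and is not a result. Copy number was not measured, and whether DNA is absent here was not tested.

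The stretch was bounded by genes with reads. On the side of the chromosome end, KLHL9, a ubiquitin ligase adaptor gene with a single exon, had 85 reads in the control and 123 in the deficient library. Beyond KLHL9 the interferon genes, HACD4 and MLLT3 had at most 2 reads as well. On the centromere side, the RNA-binding protein gene ELAVL2 had 36 and 65. Farther along, TUSC1 had 118 and 133 reads, CAAP1 213 and 235, PLAA 834 and 789 and IFT74 313 and 323, with log2 ratios of 0.15, 0.12, -0.09 and 0.03. MOB3B had 95 and 159 reads and C9orf72 308 and 427, with larger log2 ratios of 0.66 and 0.44. That of KLHL9 was 0.47. Among non-coding rows between KLHL9 and ELAVL2 the most reads were on the processed pseudogenes CLIC4P1, 58 and 70, and KHSRPP1, 12 and 21, which can take reads of their parent genes. The long non-coding RNA gene LINC01239 followed with 4 and 16. Of the 9p21 list 6 of 19 genes passed 1 RPKM, 5 above 0 and 1 below, with 0 past 2-fold in either direction. Their median log2 ratio was 0.14, against -0.05 over all genes.

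FOCAD, a focal adhesion gene with a tumour suppressor role in glioma that lies beyond KLHL9, had the largest ratio between the libraries of the protein-coding genes plotted for 9p21. It had 54 reads in the sgVector library, at 0.332 RPKM, and 1 read in the deficient library, 54.6-fold lower (9.39 to 2195). Its mean level was below 1 RPKM, so it enters no count of called genes. FOCAD was singled out after its values were seen. CDKN2A and CDKN2B, at 2 reads each in the control, were too low for a difference of that size to be seen.

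**Figure D2:**
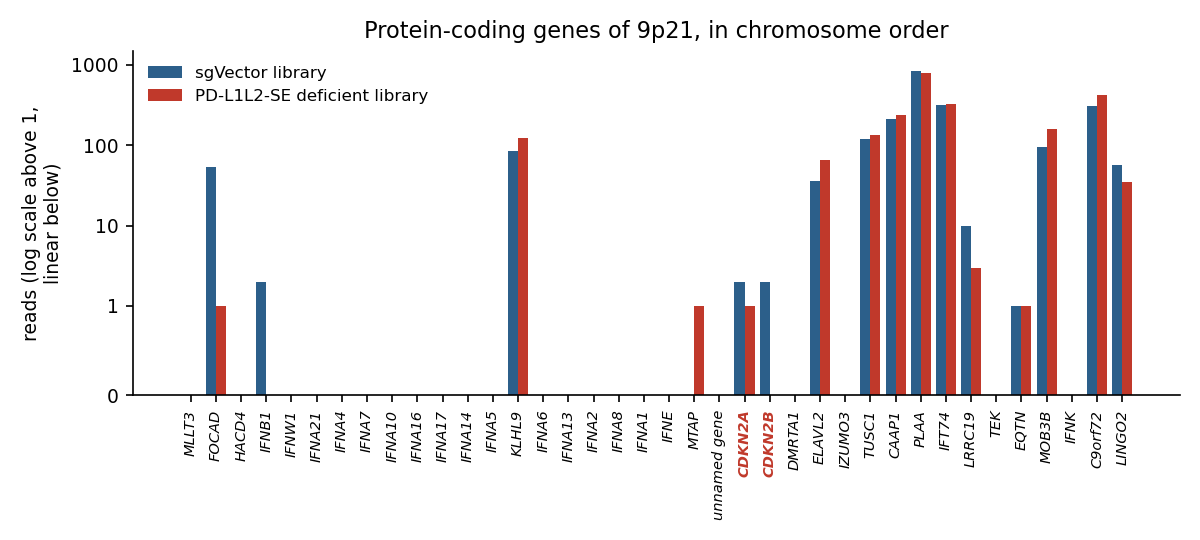
Reads on each protein-coding gene of 9p21 in chromosome order (horizontal axis, CDKN2A and CDKN2B in red) in the sgVector library (blue) and the deficient library (red), on a vertical axis that is logarithmic above 1 read and linear below. From IFNA6 to DMRTA1, a stretch drawn by this limit, no gene has more than 3 reads in a library. KLHL9 has 85 and 123 and PLAA 834 and 789, and FOCAD has 54 reads in the control and 1 in the deficient library.

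Among the D-type cyclins, CCND1 and CCND3 were expressed and differed in opposite directions. CCND1, on chromosome 11 from 69455855 to 69469242 (ENSG00000110092), encodes cyclin D1, the D-type cyclin most often raised in breast cancer. It had 6200 reads at 79.2 RPKM in the sgVector library and 5242 at 66.3 in the deficient library, 1.20-fold lower (1.15 to 1.24). CCND3, on chromosome 6 from 41902671 to 42018095 (ENSG00000112576), encodes cyclin D3. It had 1896 reads at 20.2 RPKM in the control and 2904 at 30.6 in the deficient library, 1.52-fold higher (1.43 to 1.61). The CCND3 log2 ratio of 0.60 was matched or exceeded in size by 15.0% of protein-coding genes, and upward by 6.63%. For the CCND1 value of -0.26 the shares were 49.3% in size and 27.0% downward.

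Both genes overlap other genes in the annotation. LTO1, on the other strand, shares 497 exon bases with CCND1 and had 359 reads in the control and 346 in the deficient library. A long non-coding RNA gene shares 24 exon bases with CCND3 and had 7 and 11. Whether counting took account of strand is not stated, and these counts are small beside those of the cyclins.

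CCND2, on chromosome 12 from 4382938 to 4414516 (ENSG00000118971), encodes cyclin D2. It had 6 reads in the control, 0.0517 RPKM, and 1 in the deficient library, 0.00853 RPKM. The ratio was 0.165, with an interval from 0.00358 to 1.36 that spans no change. Cyclin D2 transcripts were 0.0520% of the summed D-type cyclin RPKM in the control and 0.00881% in the deficient library.

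The total of D-type cyclin transcripts was close to equal in the libraries while its makeup differed. The sum was 99.4 RPKM in the sgVector library and 96.8 in the deficient library. CCND1 made up 79.7% of it in the control and 68.4% in the deficient library, and CCND3 20.3% and 31.6%. CCND3 stood at 0.255 times the RPKM of CCND1 in the control and at 0.461 times in the deficient library, a 1.81-fold higher ratio (1.69 to 1.94).

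CCND3 has 3 RefSeq start windows, of which the 2 with GC boxes are shown, since the gene-level value sums over them. They lie on the minus strand of GRCh38.p14, at chr6:42048689-42048938 for the farther start and chr6:41941809-41942058 for the nearer, and capitals again mark the motif letters.
CCND3 farther start: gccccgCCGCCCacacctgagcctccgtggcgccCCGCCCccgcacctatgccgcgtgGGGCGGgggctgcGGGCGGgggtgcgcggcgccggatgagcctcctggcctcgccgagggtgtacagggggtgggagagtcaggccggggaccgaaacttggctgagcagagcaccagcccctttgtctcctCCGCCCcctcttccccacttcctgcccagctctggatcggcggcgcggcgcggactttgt
CCND3 nearer start: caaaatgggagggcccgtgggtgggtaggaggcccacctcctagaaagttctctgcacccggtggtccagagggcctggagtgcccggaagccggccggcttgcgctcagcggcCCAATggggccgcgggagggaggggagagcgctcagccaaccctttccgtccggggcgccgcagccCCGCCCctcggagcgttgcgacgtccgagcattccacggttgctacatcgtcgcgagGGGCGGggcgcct
The farther window holds 5 GC boxes, and the nearer holds 2 GC boxes and 1 CCAAT box. None of the other motifs was found in either. Which start was used in these cells cannot be read from the table.

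**Figure D3:**
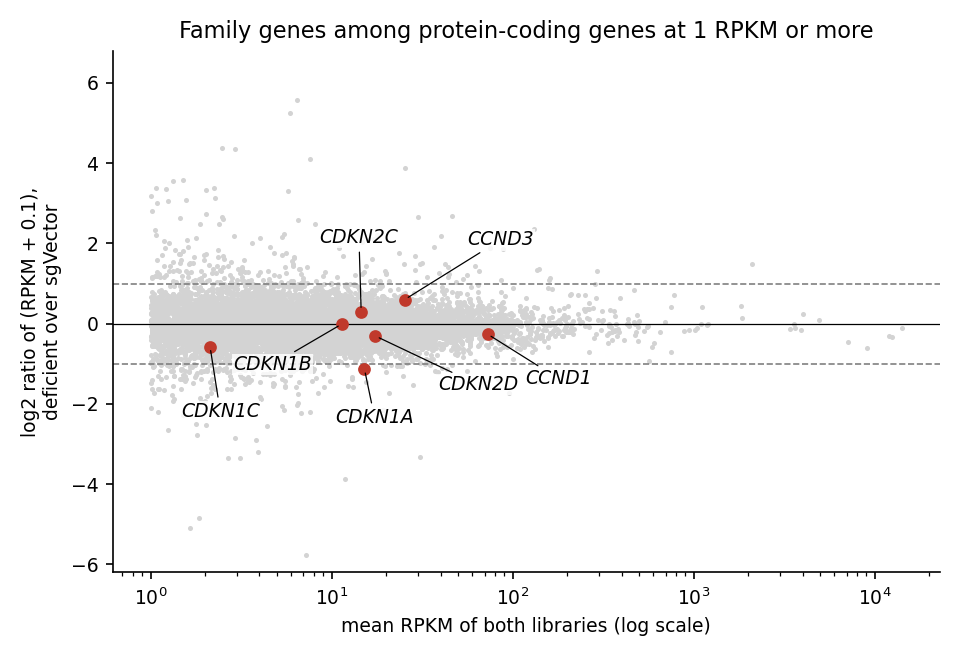
Log2 ratio of (RPKM + 0.1), deficient over sgVector (vertical axis), against the mean RPKM of both libraries (horizontal axis, logarithmic) for the 10576 protein-coding genes past 1 RPKM (grey) and the 7 expressed family genes (red). Dashed lines mark 2-fold. CDKN1A at -1.13 lies just past the lower line, CCND3 at 0.60 lies between the lines, and the other 5 lie nearer to 0.

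The partner kinases of these genes were measured beside them. CDK4, at 31.1 RPKM in the control and 23.2 in the deficient library, had a log2 ratio of -0.42, and CDK6, at 4.09 and 5.40, had 0.39. The RPKM of CDK6 relative to CDK4 was 1.77-fold higher in the deficient library (1.57 to 1.99), at 0.233 against 0.132. CDK2, the main target of p21 and p27, stood at -0.47, with 1126 reads in the control and 822 in the deficient library. CDKN1A relative to CDK2 was 1.59-fold lower (1.38 to 1.84), and CDK2 relative to CDKN1B stood at 0.727 times the control's ratio (0.624 to 0.848). CCND3 relative to CDK4 was 2.03-fold higher (1.85 to 2.23), and CCND1 relative to CDK4 1.12-fold higher (1.03 to 1.22). These pairs, 12 in all, were chosen with the values known, and transcript ratios do not measure protein complexes.

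Of 15 G1 kinases, partner cyclins and their regulators 14 passed 1 RPKM, with 0 past 2-fold and a median log2 ratio of -0.30 (-0.17 after correction for GC content and length), and 10 of the 14 were below 0. For this and the later lists, the median over all 13552 genes past 1 RPKM was -0.05, with 7518 below 0 and 6034 above. The cyclin E genes, whose products activate CDK2, were higher, CCNE2 at 0.78 from 61 reads in the control and 111 in the deficient library and CCNE1 at 0.28 with 148 and 182 reads and an interval of the ratio that spanned no change (0.974 to 1.52). CCNA1, the germline cyclin A gene, and MNAT1, a subunit of the CDK-activating kinase, had the lowest values of the list, -0.77 and -0.70.

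**Figure D4:**
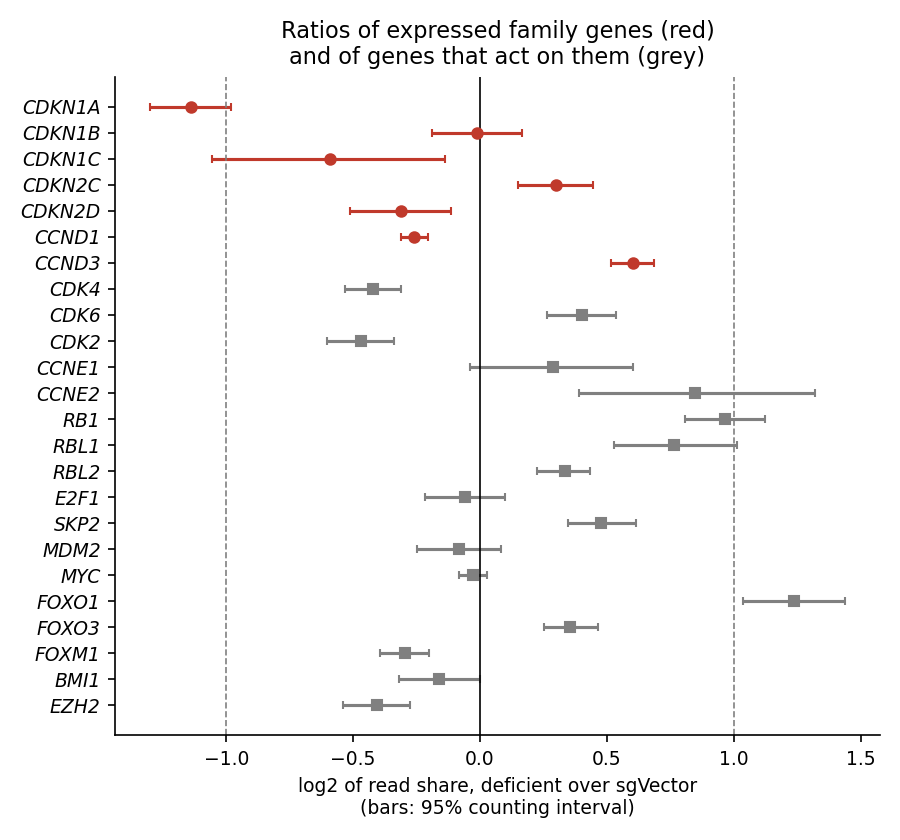
Log2 ratio of read shares, deficient over sgVector (horizontal axis, no pseudocount), with 95% Clopper-Pearson counting intervals for the 7 expressed family genes (red circles) and 17 genes that act with or on them (grey squares). Dashed lines mark 2-fold. CDKN1A lies to the left of the lower line with an interval that crosses it, FOXO1 lies wholly past the upper line, and RB1 lies just short of it.

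Genes of the RB and E2F families, on which D-type cyclin kinases act, had a median log2 ratio of 0.19, against -0.05 over all genes. Of 19 genes 18 passed 1 RPKM, 12 of them above 0 and 0 past 2-fold. The highest were those of the pocket protein RB1, at 4.74 RPKM in the control and 9.27 in the deficient library (log2 ratio 0.95, 1.95-fold higher, 1.75 to 2.18), its relative RBL1 at 0.74 and the E2F partner TFDP1 at 0.65. RBL2 stood at 0.33 and E2F1 at -0.06. E2F7 and E2F4, which act as repressors, and LIN37, of the DREAM complex, were lowest at -0.52, -0.50 and -0.21, and the LIN37 interval spanned no change. RB1 and TFDP1 lie on chromosome 13, where 172 of 180 protein-coding genes past 1 RPKM were above 0, with a median of 0.46. The 10 protein-coding neighbours of RB1 within 1 Mb had a median of 0.48. CCNA1 lies there too, at -0.77. The part of the chromosome in the values of RB1 and TFDP1 was not tested.

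E2F target genes, which are switched on at the start of DNA replication, had a median log2 ratio of -0.16, against -0.05 over all genes, and of -0.02 after correction for GC content and length. All 32 passed 1 RPKM, 0 were past 2-fold and 20 were below 0, as were 7518 of all 13552 genes. The lowest were the DNA polymerase alpha subunit gene POLA2 at -0.82, the GINS complex gene GINS1 at -0.63 and the helicase gene MCM5 at -0.62. CCNE2, the polymerase gene POLA1 and the thymidylate synthase gene TYMS were highest at 0.78, 0.41 and 0.33.

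Genes for the breakdown of cyclins and inhibitors showed no common direction. Of 25 genes 24 passed 1 RPKM, 13 above 0 and 0 past 2-fold, with a median of 0.06. SKP2, the F-box protein that marks p27 and p21 for degradation, had 741 reads in the control and 1044 in the deficient library, a log2 ratio of 0.48. UHMK1, a kinase that phosphorylates p27, and CUL4A and CUL4B, scaffolds of a ligase that acts on p21, were the highest at 0.76, 0.69 and 0.48. CUL4A lies on chromosome 13 as well. The deubiquitinase gene USP2, which stabilises cyclin D1, FBXW7, which marks cyclin E, and the mitotic activator gene CDC20 were lowest at -0.58, -0.55 and -0.53.

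CDKN1A is induced by DNA damage, so genes of the damage and stress response were set beside it. Of 31 listed genes 27 passed 1 RPKM, 15 above 0, with a median log2 ratio of 0.04. Besides CDKN1A only PMAIP1 was past 2-fold, and in the other direction. PMAIP1, the gene of the pro-apoptotic protein NOXA, had 207 reads in the control and 870 in the deficient library, a log2 ratio of 2.04. The ubiquitin ligase gene MDM2 stood at -0.08. After CDKN1A the lowest were TP53I3 at -0.57, with 130 reads in the control and 87 in the deficient library, and the stress sensor gene SESN2 at -0.42. The epithelial transcription factor gene TP63 at 0.96 and the ribonucleotide reductase gene RRM2B at 0.85 were the next highest.

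Among 33 measured genes for transcription factors, TGF-beta pathway members and a deacetylase that act on these genes, 2 were past 2-fold upward and 1 downward, where 3.03% and 4.69% of all genes lay. The inhibitor of differentiation gene ID2 was 3.08-fold higher (2.69 to 3.52), and FOXO1, a factor that induces CDKN1B and CDKN1A, was 2.36-fold higher (2.05 to 2.71), with 291 reads in the control and 694 in the deficient library. FOXO1 lies on chromosome 13. The AP-1 gene FOSL1 was 2.29-fold lower (2.13 to 2.46). The MYC transcript, whose protein represses CDKN1A, had a log2 ratio of -0.03, FOXO3 of 0.36 and FOXM1 of -0.29. ID3 at 0.81 was the third highest of the list, and the MYC partner gene MAX and the TGF-beta effector gene SMAD3 were next to FOSL1 at -0.61 and -0.35. The list median was 0.05, with 20 of 33 above 0.

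Polycomb, chromatin remodelling and DNA methylation genes, several of which silence the INK4 locus, had a median of -0.16, with 19 of 26 below 0. Over all genes the median was -0.05, with 7518 of 13552 below 0. After correction for GC content and length the list median was -0.07. DNMT3B, a de novo DNA methyltransferase gene, was 2.66-fold lower (2.18 to 3.27), with 353 reads in the control and 134 in the deficient library. It was the only 1 of the 26 past 2-fold, where 4.69% of all genes were lower by at least that much. RING1 and EZH2, catalytic subunits of the Polycomb complexes, stood at -0.58 and -0.40, and BMI1 at -0.16. The histone demethylase gene KDM6A, CBX6 and PHC3 were highest at 0.65, 0.48 and 0.38.

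Each expressed gene was also set beside the protein-coding genes within 1 Mb that passed 1 RPKM. CDKN1A lay outside the range of its 16 neighbours, which ran from -0.32 to 0.47 with a median of 0.01. It lay inside that of the 91 neighbours within 5 Mb, -1.54 to 0.62. With non-coding genes included, its 19 neighbours within 1 Mb had a median of -0.06. Of these 19, 1 was at least 2-fold lower and 1 at least 2-fold higher. CCND3 lay above all 26 of its neighbours, which ran from -0.81 to 0.51 with a median of -0.11, and above all 66 within 5 Mb, -1.03 to 0.51. CCND1 at -0.26 lay within the range of its 10 neighbours, -1.43 to 0.83, whose median was 0.10. CDKN2D at -0.31 lay near the median of -0.19 over 46 neighbours, and CDKN1B at -0.01 within the range of 10 neighbours whose median was -0.19. CDKN2C at 0.30 was just above its 5 neighbours, -0.02 to 0.29, and inside the range of the 50 within 5 Mb, -1.14 to 1.55.

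CDKN1C at -0.57 lay just below the lowest of its 13 neighbours, -0.53 for PHLDA2, another imprinted gene expressed from the maternal copy. It lay inside the range of the 79 within 5 Mb, -2.04 to 3.37. Of 16 genes listed for the imprinted 11p15 region 7 passed 1 RPKM, 6 of them below 0, with a median of -0.20. TSSC4 and the tetraspanin gene CD81 stood at -0.47 and -0.34, and OSBPL5 alone was above 0, at 0.16. KCNQ1OT1, the long RNA that silences CDKN1C on the paternal copy, had 528 reads in the control and 324 in the deficient library but a mean below 1 RPKM. IGF2 was listed at 0 in both libraries and H19 had 2 and 3 reads.

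**Figure D5:**
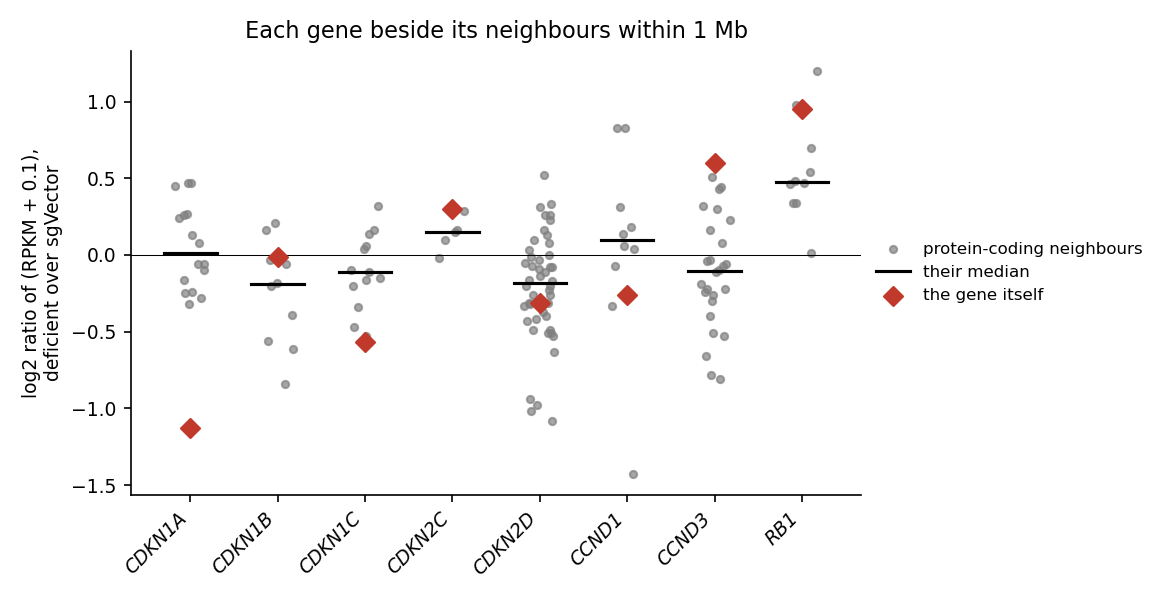
Log2 ratio of (RPKM + 0.1), deficient over sgVector (vertical axis), for each expressed family gene and RB1 (red diamonds) beside its protein-coding neighbours within 1 Mb (grey points) and their median (black line). CDKN1A lies below its 16 neighbours and CCND3 above its 26, while the 10 neighbours of RB1 lie at or above 0.01.

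Base composition and line identity were measured beside these results. Across 5 equal classes of GC content the median over protein-coding genes went from 0.14 in the lowest to -0.20 in the highest class. Of the expressed genes of the family, CDKN1A, CDKN1C, CDKN2C and CDKN2D fell in the highest class. CDKN1A and CDKN2C, both at 58.1%, lay next to its lower bound of 58.0%. After the correction for GC content and length CCND3 stood at 0.73. All 9 mesenchymal markers passed 1 RPKM, from ZEB1 at 7.14 RPKM in the control and 7.31 in the deficient library to VIM at 746 and 390. Their summed level was 1753 RPKM in the control and 1334 in the deficient library, with 7 of 9 below 0, a median log2 ratio of -0.19 and 0 past 2-fold. Of 6 basal or squamous markers 3 passed, EGFR at 0.01, TP63 at 0.96 and KRT17 at 1.06 on the log2 scale. Of 10 luminal markers 5 passed, with GATA3 lowest at -0.64 and ERBB2 highest at 0.50, while PGR was at 0 and EPCAM and CDH1 had at most 1 read. Of 6 leukocyte markers CD14 alone passed 1 RPKM, with summed levels of 11.2 RPKM in the control and 15.5 in the deficient library, while CD3E was at 0 and PTPRC had 4 reads and 0. Of 4 endothelial markers found ERG alone passed, with sums of 1.34 and 1.45 RPKM, and KDR, VWF and CDH5 had between 2 and 13 reads. The part of other cells in the results was not tested.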

How the data were processed

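The authors deposited RPKM values per gene, 1 column a library, beside the coordinates of exons and a gene length, per the file headers. The submitters' processing notes name featureCounts 1.6.4 of Subread and the builds GRCh37 and hg19. Aligner, annotation release and strand setting were not given in the sources used here. The length is the union of a gene's annotated exons, so RPKM understates genes with many unused exons. Dividing RPKM times length by its smallest step gave whole numbers of reads for 100% of genes with a tolerance of 1e-06, and intervals rest on them. A count of 0 allows up to 3 reads, or 0.183 (deficient) and 0.185 (sgVector) reads per 1000000.

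The table has 60880 rows, and 41 pseudoautosomal rows of chromosome Y were dropped. Symbols came from a gene name table and types from GENCODE release 29, which matched 56817 rows by identifier; it gave no coordinates. The 10 genes, the lists and the alternatives were chosen with earlier results of these data known. Named genes were the 10, a set of 20 that act on or lie beside them, list members past 2-fold, and the 3 highest and 3 lowest of each list. Some genes that this rule or the lists hold are not reported here, and they were taken out of the list counts. A call needed a mean of 1 RPKM and 2-fold on the log2 scale with a pseudocount of 0.1. Ratios between genes have conditional exact 95% intervals. Alternatives were pseudocounts, TPM, trimmed mean of M values (TMM), upper-quartile and median scaling, removal of mitochondrial genes, a lowess correction (share 0.3) on GC content and length, floors, thresholds and a window of 5 Mb. Steps were tested on simulated data. Intervals were made with scipy 1.17.1, the lowess fit with statsmodels 0.14.6 and figures with matplotlib 3.10.9, in Python 3.11.15 with pandas 2.3.3 and numpy 2.4.6.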

Additional observations from a re-analysis of the deposited data

How the results depend on the processing

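No paired analysis was possible because each group has 1 library. CDKN1A was called lower under every scaling, pseudocount and floor tried except the correction for GC content and length, where 0 genes of the family were called lower. At 4-fold the number was also 0, since CDKN1A was 2.20-fold lower. With the whole 95% interval past 2-fold it was 0 as well, since the CDKN1A interval, 1.98 to 2.46, crosses 2-fold. At 1.5-fold 1 family gene, CCND3, was called higher. Over the 8 scalings and pseudocounts the log2 ratio of CDKN1A ran from -1.16 to -0.91, that of CCND3 from 0.57 to 0.73, that of CCND1 from -0.28 to -0.17, that of CDKN2C from 0.27 to 0.51, that of CDKN2D from -0.33 to -0.04 and that of CDKN1C from -0.59 to -0.28, and the sign of CDKN1B, near 0, changed. Among 56 such values, 6 moved past their counting interval, 5 through the GC content and length correction and 1 through TMM, and the cause was not tested. TMM moved the median over all genes by 0.08 in log2.

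Of 98 list medians under alternatives 94 moved by at most 0.1. The G1 kinase median went to -0.17 and the E2F target median to -0.02 with the GC content and length correction, and the 9p21 median to 0.00 without a floor. Medians of neighbours that lay near 0 changed sign under some alternatives. Against 411 genes higher and 636 lower, a pseudocount of 1 gave 215 and 344 over all genes. Lowering the floor to 0.5 RPKM gave 642 and 1138, raising it to 5 gave 115 and 152, and dropping it gave 2575 and 3711. A 1.5-fold threshold gave 1123 and 1703, and a 4-fold threshold gave 85 and 131. Requiring the whole interval beyond 2-fold left 165 and 160, and protein-coding genes alone 222 and 219. Depth limits CDKN2A, CDKN2B and CCND2, with 0 to 6 reads.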
